A study of Mus musculus with 12 samples.

Results

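Hippocampal RNA of 6 libraries labelled as lacking the p75 neurotrophin receptor was set against that of the other 6 libraries of the series, with carriage of the 5xFAD transgenes held constant. The groups were chosen from the library labels alone. The receptor-labelled libraries were 3 of p75NTRko mice and 3 of 5xFAD/p75NTRko mice, and the others were 3 of WT and 3 of 5xFAD mice, so that 6 of 12 libraries stood on each side and each side held 3 carriers and 3 non-carriers. All mice were 2 months old and had received BrdU, a thymidine analogue taken up by dividing cells, before the hippocampus was dissected. The 5xFAD line carries human familial Alzheimer's disease transgenes driven by a Thy1 promoter, which is active mainly in neurons, and p75NTRko names a knockout of Ngfr, the gene of the receptor. The labels give neither the Ngfr allele, nor the strain, nor the sex of the mice. They call the libraries biological replicates without saying whether a library is 1 animal.

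The p75 neurotrophin receptor belongs to the tumour necrosis factor receptor superfamily and binds mature neurotrophins together with Trk receptors and their uncleaved precursors together with sortilins. Depending on its partners it can promote survival, cell death or growth arrest, and it signals through adaptors such as TRAF6 and through RhoA. In the adult forebrain it is best known from basal forebrain cholinergic neurons, whose axons reach the hippocampus, and it has been described on adult neural progenitors. The title of the series places the comparison in a question about hippocampal neurogenesis in this disease model.

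Gene-assigned counts per library ranged from 4316739 to 6683613, so that a gene with 3 counts had 0.445 to 0.689 CPM, the count scaled to the TMM-adjusted library size. Of 24421 genes in the table, 13065 passed the filter on low counts and were tested, and the adjusted p-values below come from edgeR's quasi-likelihood test over all of them, with a threshold of 0.05. Unaligned reads made up 18.6% to 23.5% of reads in the receptor-labelled libraries and 21.9% to 25.4% in the others. Xist, which is transcribed from an inactive X chromosome, was high in 4 of 6 receptor-labelled and in 3 of 6 other libraries. Summed CPM of 18 choroid plexus markers ranged from 191 to 7430 (median 4950) in receptor-labelled libraries and from 337 to 6110 (median 2240) in the others, and that of 18 thalamic and habenular markers from 378 to 1140 (median 440) and from 451 to 971 (median 623). The part of these differences in the results below was not tested beyond the fits that carried them as further terms.

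Ngfr, the gene named by the label, was measured first. Its level in the receptor-labelled libraries was 7.77, 7.35 and 5.94 CPM for p75NTRko replicates 1, 2 and 3, and 6.32, 10.5 and 10.5 CPM for 5xFAD/p75NTRko replicates 1, 2 and 3. In the other libraries it was 0.895, 1.94 and 0.166 CPM in WT replicates 1, 2 and 3, and 1.70, 0.750 and 0.840 CPM in 5xFAD replicates 1, 2 and 3. These levels rest on 6, 12 and 1 counts in WT and 10, 4 and 4 counts in 5xFAD, against 32 to 64 counts per receptor-labelled library. WT replicate 3 was below its 3-count limit of 0.497 CPM, so the size of the fold change below is uncertain. The sets did not overlap, and every receptor-labelled library was higher, not lower, than every other library. The fold change was 7.39 (log2 fold change 2.89, 95% confidence interval 2.20 to 3.58, adjusted p 0.00278 by edgeR). When the receptor label was permuted within each transgene background, the difference of 2.71 in mean log2 CPM gave an exact two-sided p of 0.005 over 400 assignments, the smallest that this design can give. The direction ran against the label. Why the level was higher was not tested. Reads of 3′ libraries come from transcript ends, which may lie outside the deleted part of the gene, so the level of Ngfr does not by itself check the knockout. For this reason the groups are named below as the libraries were labelled, and no direction is attributed to loss of the receptor.

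The bases in front of Ngfr are shown because this gene had the largest fold change among the genes past the threshold. Ngfr lies on the minus strand at chr11:95568818-95587698 (GRCm38), and the 250 bases before its RefSeq start, chr11:95587699-95587948, read 5′ to 3′ on the strand of the gene with the motif GGGCGG and its reverse complement CCGCCC, the letters of a GC box, in capitals.
Ngfr promoter: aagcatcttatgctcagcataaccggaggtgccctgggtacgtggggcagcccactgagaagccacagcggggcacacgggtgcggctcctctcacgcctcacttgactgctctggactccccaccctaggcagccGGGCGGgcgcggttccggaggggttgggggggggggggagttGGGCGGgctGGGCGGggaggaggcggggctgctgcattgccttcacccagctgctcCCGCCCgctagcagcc
The window is 70.4% G and C and holds 16 CpG dinucleotides. The motif occurred 4 times in it, 3 times in the orientation of the gene and 1 time in reverse. At least 1 match in either orientation was present in 10756 of 32851 RefSeq promoter windows of the same length, or 32.7%, so its presence is common and is given as a description of the sequence.

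Across all genes tested, 10 were past the threshold (0.0765% of genes tested), 4 higher (0.0306%) and 6 lower (0.0459%) in the receptor-labelled libraries. Ngfr, Med1, Chchd2 and Psmd4 rose. Mapt, Mbtd1, Glg1, Msl1, Impad1 and Ctsk fell. The 6 and 6 libraries did not overlap for 7 of these 10 genes, and they did so for 42 genes of all tested (0.321%), 21 in each direction (0.161%). At an unadjusted p under 0.05 there were 756 genes (5.79%), 312 higher (2.39%) and 444 lower (3.40%). Apart from Ngfr, the called genes changed by less than 3-fold in either direction. The median log2 fold change over all genes was 0.

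**Figure D1:**
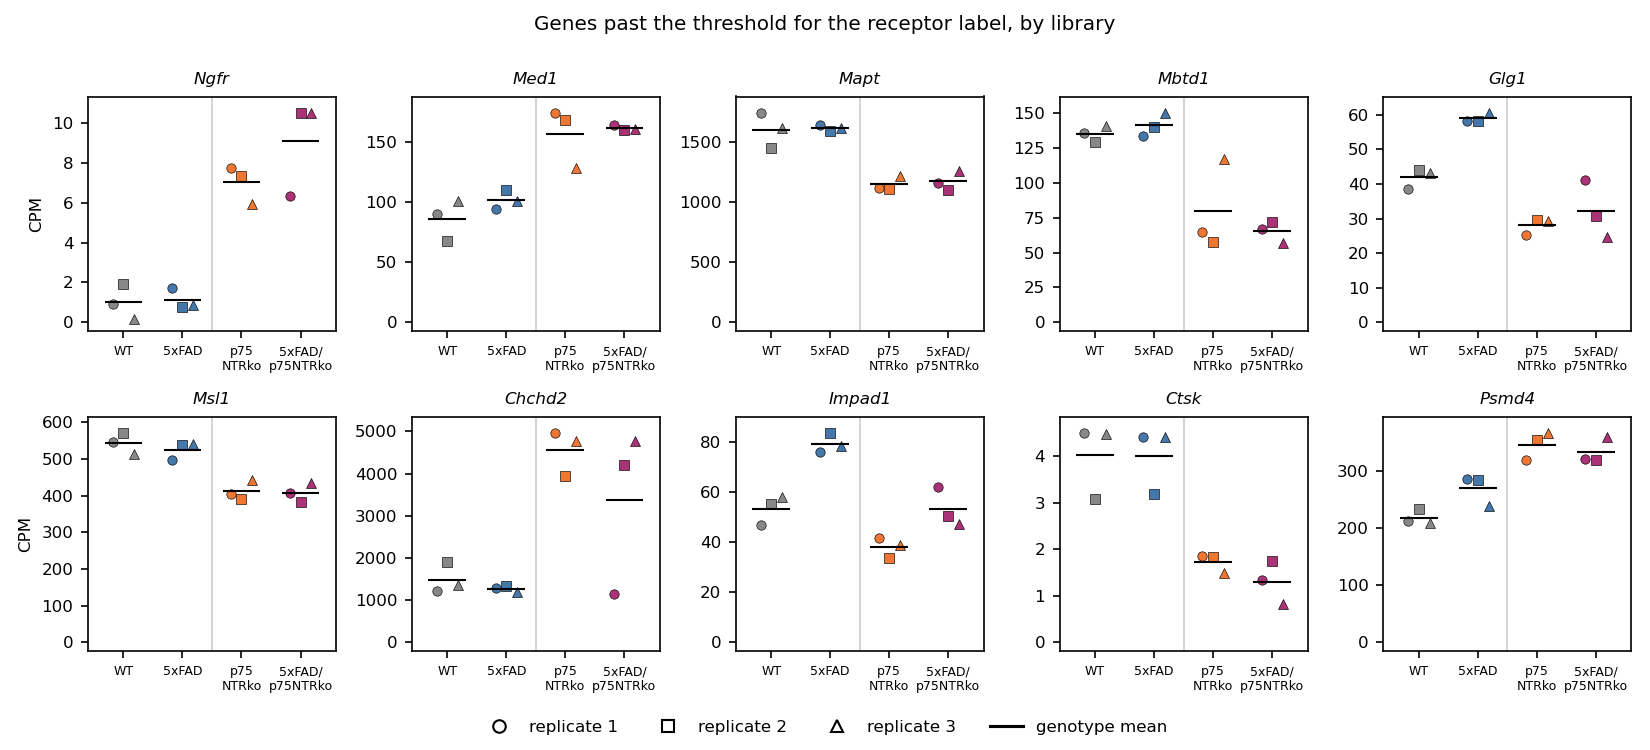
CPM (y axis, linear, from 0) in each of the 12 libraries for the 10 genes past the adjusted threshold, by genotype, with marker shape giving the replicate number and the black line the mean of 3 libraries. The vertical grey line separates other libraries (left) from receptor-labelled ones (right); Chchd2 shows 1 receptor-labelled library, at 1150 CPM, at the level of the others, and Mbtd1 shows 1 at 117 CPM between the sets.

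Of the 10 called genes, 5 lay on chromosome 11, all within 10 Mb of Ngfr: Ngfr itself, Med1, Mapt, Mbtd1 and Msl1. The neighbourhood of a targeted gene is examined here because DNA next to an engineered allele is inherited with it and can keep the sequence of the strain in which the allele was made. Med1 and Msl1, 2.59 and 3.22 Mb from the middle of Ngfr, moved in opposite directions, as did Ngfr and Mbtd1. No value of these files gives the strain of origin, so a part of linked sequence differences in these values was not tested.

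Med1 encodes the Mediator subunit that contacts nuclear receptors and lies at chr11:98152154-98193313. Its level ran from 128 to 174 CPM (median 163) in the receptor-labelled libraries and from 67.4 to 110 CPM (median 97.6) in the others, without overlap. The receptor-labelled mean was 159 CPM ± 16.2 and the other mean 94.0 CPM ± 14.6 (SD, n = 6 each; log2 fold change 0.76, SE 0.1, adjusted p 0.00737 by edgeR). The lowest receptor-labelled library was p75NTRko replicate 3, and the other 5 lay between 160 and 174 CPM. Of 28 Mediator subunits tested, a list drawn up because Med1 was already known to stand out, Med1 was the only member called and the median log2 fold change was 0.03. Med17, the member with the next smallest p, had a log2 fold change of 0.15 (adjusted p 0.85 by edgeR).

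Mapt, at chr11:104229409-104332090 and 8.70 Mb from Ngfr, encodes tau, the microtubule-associated protein that aggregates in Alzheimer's disease. It was among the more abundant transcripts here, at 1100 to 1260 CPM (median 1140) in receptor-labelled libraries and 1450 to 1740 CPM (median 1620) in the others. Every receptor-labelled library was below every other library, and the level on average was 72.2% of that in the others (log2 fold change -0.47, SE 0.0623, adjusted p 0.00737 by edgeR). The difference was nearly the same without transgenes, -0.48 (SE 0.0903), and with them, -0.46 (SE 0.0903).

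Mbtd1, a chromatin reader of the TIP60 acetyltransferase complex at chr11:93885850-93946989, ran from 57.0 to 117 CPM (median 65.6) in receptor-labelled libraries and from 129 to 150 CPM (median 138) in the others. The sets did not overlap, but p75NTRko replicate 3, at 117 CPM, stood between the remaining 5 receptor-labelled libraries, at 57.0 to 71.6 CPM, and the others. The log2 fold change was -0.94 (SE 0.143, adjusted p 0.0272 by edgeR). Without p75NTRko replicate 3 it was -1.13 (adjusted p 8.35e-06 by edgeR). Its neighbour Utp18, a component of the complex that processes small-subunit ribosomal RNA, had higher values: 26.4 to 36.2 CPM (median 29.1) against 13.6 to 23.7 CPM (median 19.1). Utp18 did not overlap between the sets, yet it was not past the threshold (log2 fold change 0.63, SE 0.126, adjusted p 0.137 by edgeR).

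These neighbours are transcribed away from each other, Utp18 on the minus strand and Mbtd1 on the plus strand, and their RefSeq starts are separated by 83 bases. That stretch is printed because both genes that flank it kept the library sets apart, Mbtd1 (called) with lower and Utp18 (not called, adjusted p 0.137 by edgeR) with higher values. It lies at chr11:93885767-93885849 (GRCm38) and is given 5′ to 3′ on the plus strand, with CCGCCC in capitals.
Utp18 to Mbtd1: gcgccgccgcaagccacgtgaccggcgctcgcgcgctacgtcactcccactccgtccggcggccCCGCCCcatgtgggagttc
It is 75.9% G and C, with 14 CpG dinucleotides and 1 match of the GGGCGG motif, on the minus strand. Both genes are transcribed away from this stretch, so it holds neither of the 3′ ends that the libraries count.

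Msl1, at chr11:98793508-98807862, encodes the scaffold of a complex that acetylates histone H4. It ran from 383 to 441 CPM (median 405) in receptor-labelled libraries and from 496 to 569 CPM (median 538) in the others. The sets did not overlap although the difference was the smallest of the called genes, at 76.9% of the other level (log2 fold change -0.38, SE 0.0597, adjusted p 0.0276 by edgeR). With choroid plexus and thalamic marker scores as further terms the log2 fold change of Msl1 was -0.35 and its adjusted p 0.137.

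Counted by distance, 1 of 68 tested genes within 2.5 Mb of Ngfr was called apart from Ngfr itself, 2 of 39 between 2.5 and 5 Mb, and 1 of 127 between 5 and 10 Mb. None of 199 genes between 10 and 20 Mb and none of 609 farther along the chromosome was called, against 5 of 11991 on other chromosomes (0.0417%). At an unadjusted p under 0.05 the shares were 11.8%, 15.4% and 11% in the 3 classes within 10 Mb, 5.03% and 3.94% in the classes beyond, and 5.77% on other chromosomes. Libraries did not overlap for 7.35%, 5.13% and 2.36% of genes in the same 3 classes, and for 0.503%, 0.328% and 0.225% in the others. Both directions were present near Ngfr: of 234 tested genes within 10 Mb, 106 had a higher and 128 a lower estimate, and their median log2 fold change was -0.02. No test of the difference between distance classes was made, and neighbouring genes are not independent of each other.

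**Figure D2:**
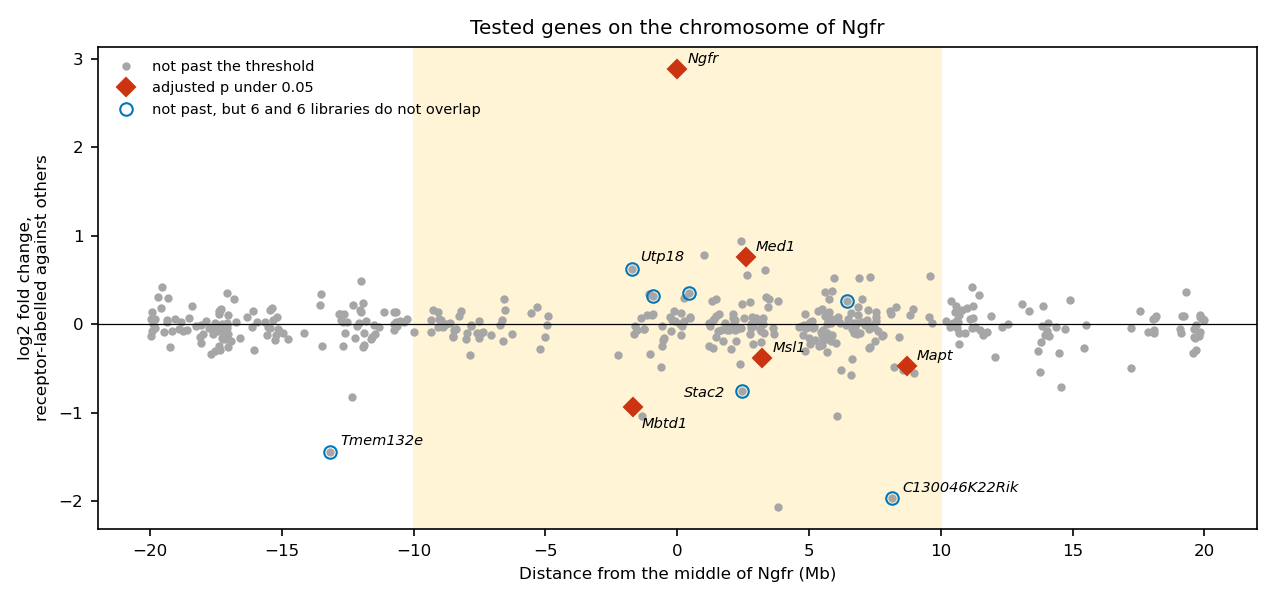
Log2 fold change of receptor-labelled against other libraries (y axis) for each tested gene within 20 Mb of the middle of Ngfr (x axis, Mb, negative towards the start of the chromosome). Red diamonds are genes past the adjusted threshold, open rings genes not past it whose 6 and 6 libraries do not overlap, and the shaded band is 10 Mb to each side; all 5 called genes on the chromosome lie in the band, 2 above and 3 below 0.

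Further genes near Ngfr did not pass the threshold but kept the libraries apart. Stac2, an SH3-domain protein associated with calcium channels, lies 2.47 Mb from Ngfr and had 9.48 to 15.2 CPM against 16.3 to 30.3 CPM (log2 fold change -0.75, adjusted p 0.0842 by edgeR). The RIKEN transcript C130046K22Rik, 8.13 Mb away, had 0.389 to 3.12 CPM against 3.73 to 6.72 CPM (log2 fold change -1.96, SE 0.380, adjusted p 0.104 by edgeR). Its highest receptor-labelled value came from p75NTRko replicate 3, the library that was also intermediate for Mbtd1 and lowest for Med1. Snf8, an ESCRT-II subunit at 0.46 Mb, had 30.8 to 38.2 CPM against 24.5 to 29.0 CPM (log2 fold change 0.36, adjusted p 0.194 by edgeR), and Mpp3, a synaptic scaffold protein at 6.44 Mb, had 95.3 to 122 CPM against 82.0 to 91.4 CPM (log2 fold change 0.27, adjusted p 0.378 by edgeR). Gfap, the astrocyte intermediate filament gene, is also in this region, at 7.31 Mb. Its log2 fold change was -0.25 (SE 0.0944, adjusted p 0.786 by edgeR), with overlapping ranges of 73.8 to 113 CPM and 89.4 to 146 CPM.

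The 5 called genes outside chromosome 11 were Psmd4, Ctsk, Chchd2, Glg1 and Impad1. Psmd4 and Ctsk are 0.46 Mb apart on chromosome 3. Psmd4, at chr3:95032688-95042614, encodes a ubiquitin receptor of the proteasome and had 319 to 366 CPM (median 338) against 209 to 286 CPM (median 236), without overlap (log2 fold change 0.48, SE 0.0824, adjusted p 0.0386 by edgeR). Its difference was 0.67 (SE 0.0970) without transgenes and 0.30 (SE 0.0966) with them, and the test of the difference between backgrounds gave an adjusted p of 0.469 by edgeR. Of 32 proteasome subunits tested, a list made because of Psmd4, it was the only member called, and the median log2 fold change was 0.03. Psmd7 had the next smallest p and a log2 fold change of -0.13 (adjusted p 0.842 by edgeR).

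Ctsk, at chr3:95499210-95509387, encodes cathepsin K, a lysosomal cysteine protease. It was scarce, at 5 to 10 counts per receptor-labelled library (0.819 to 1.85 CPM, median 1.62) and 17 to 30 counts per other library (3.08 to 4.48 CPM, median 4.41). The sets did not overlap, and the level was 37.5% of that in the others (log2 fold change -1.41, SE 0.238, adjusted p 0.0386 by edgeR). The lowest value, 0.819 CPM in 5xFAD/p75NTRko replicate 3, was close to the 3-count limit. Among 74 tested neighbours within 2.5 Mb of Ctsk, Psmd4 was the only one called.

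Chchd2, at chr5:129881161-129887470, encodes a mitochondrial intermembrane-space protein. Its level was 4950, 3950 and 4770 CPM in p75NTRko replicates 1, 2 and 3 and 1150, 4210 and 4770 CPM in 5xFAD/p75NTRko replicates 1, 2 and 3, against 1190 to 1900 CPM (median 1310) in the others. A single library, 5xFAD/p75NTRko replicate 1, was therefore below every other-labelled library while the remaining 5 were above all of them. The log2 fold change was 1.51 (SE 0.244, adjusted p 0.0321 by edgeR), and 1.71 without that library (adjusted p 3.82e-06 by edgeR). Rps27a, which encodes a ubiquitin fused to a ribosomal protein and lies on chromosome 11, 66.0 Mb from Ngfr, split the libraries in the same way: 5xFAD/p75NTRko replicate 1 had 109 CPM, the other 5 had 364 to 473 CPM, and the libraries without the receptor label had 64.9 to 338 CPM. It did not pass the threshold (log2 fold change 1.35, SE 0.330, adjusted p 0.349 by edgeR). WT replicate 2 was the highest of the other-labelled libraries for both genes, at 1900 CPM for Chchd2 and 338 CPM for Rps27a. RefSeq lists pseudogenes of Chchd2 and of Rps27a, and the table sets reads with more than 1 alignment apart from the gene counts, so both levels are uncertain.

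Glg1, at chr8:111153284-111259210, encodes a sialoglycoprotein of the Golgi apparatus. It was lower with the receptor label on each background, at 25.2 to 29.6 CPM against 38.6 to 44.2 CPM without transgenes and 24.6 to 41.1 CPM against 58.3 to 60.5 CPM with them. Over both backgrounds the ranges overlapped through 5xFAD/p75NTRko replicate 1, which at 41.1 CPM lay above WT replicate 1 at 38.6 CPM. The other 5 receptor-labelled libraries, at 24.6 to 30.8 CPM, lay below all 6 others. The log2 fold change was -0.73 (SE 0.113, adjusted p 0.0272 by edgeR), and with no term for transgenes its adjusted p was 0.0987. Impad1, at chr4:4762484-4793306, encodes a Golgi phosphatase that clears a by-product of sulfation. It too was lower on each background, at 33.7 to 41.6 CPM against 46.6 to 58.1 CPM without transgenes and 47.3 to 61.8 CPM against 75.8 to 83.2 CPM with them (log2 fold change -0.53, SE 0.0887, adjusted p 0.0386 by edgeR). With no term for transgenes the log2 fold change of Impad1 was again -0.53, with an adjusted p of 0.68 by edgeR.

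Each call was repeated with 1 of the 12 libraries left out. Ngfr was called in 12 of 12 fits. Med1 and Mapt were called in 11 and lost without p75NTRko replicate 2, with adjusted p-values of 0.0503 and 0.0511 by edgeR. Glg1 was called in 5 fits, Mbtd1 in 4, Msl1 in 3, Impad1 in 2, and Chchd2, Ctsk and Psmd4 in 1 each. When chromosome 11 was left out of the adjustment, an alternative chosen after seeing the data, Psmd4, Ctsk, Chchd2, Glg1 and Impad1 each had an adjusted p of 0.0718 by edgeR, so that 0 genes passed, with 695 of 12022 genes at an unadjusted p under 0.05.

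The next genes by p, none past the threshold, are given as values. Among those with lower estimates, Nemf, a factor of ribosome-associated quality control, had 43.2 to 53.5 CPM against 54.5 to 67.3 CPM, without overlap (log2 fold change -0.37, adjusted p 0.0868 by edgeR). Tmem132e, a transmembrane protein gene 13.2 Mb from Ngfr, had 0.779 to 1.83 CPM against 2.20 to 5.19 CPM (log2 fold change -1.44, adjusted p 0.12 by edgeR), without overlap. Fxr1, an RNA-binding relative of the fragile X protein, overlapped (log2 fold change -0.53, adjusted p 0.137 by edgeR), as did the RIKEN transcript C230091D08Rik (log2 fold change -0.59, adjusted p 0.0868 by edgeR). Among those with higher estimates, Fabp7, the brain fatty acid-binding protein of radial glia-like progenitors and astrocytes, had 74.2 to 112 CPM (median 93.0) against 38.9 to 70.1 CPM (median 57.8). Its libraries did not overlap, and its log2 fold change was 0.67 (SE 0.139, adjusted p 0.155 by edgeR).

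Thpo, the thrombopoietin gene, had 9.64 to 11.3 CPM against 5.47 to 8.81 CPM (log2 fold change 0.63, adjusted p 0.206 by edgeR), and its difference was 0.91 without transgenes and 0.36 with them. Abt1, a nuclear activator of basal transcription, had 26.4 to 31.1 CPM against 16 to 23.9 CPM (log2 fold change 0.41, adjusted p 0.368 by edgeR). Both Thpo and Abt1 kept the libraries apart. Rbm28, a nucleolar RNA-binding protein, overlapped (log2 fold change 0.51, adjusted p 0.443 by edgeR).

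The comparison averages over 2 backgrounds, so each was also taken alone, with all genotypes sharing the estimate of spread. The 10 called genes had the same sign on both. Ngfr had a log2 fold change of 2.77 (SE 0.468) without transgenes and 3 (SE 0.463) with them, and Mbtd1 -0.76 (SE 0.193) and -1.12 (SE 0.196). Alone, the non-carriers gave 0 genes past the threshold (0%) in edgeR, with 1501 at an unadjusted p under 0.05. The carriers gave 5 (0.0383%), with 664 at an unadjusted p under 0.05: Ngfr, Ide, Ddx3y, Eif2s3y and Uty. Of these, Ddx3y, Eif2s3y and Uty are Y-linked, and all 3 5xFAD libraries but none of the 5xFAD/p75NTRko libraries had the Xist-low, Y-high pattern, so that among carriers the receptor label and this pattern cannot be told apart. In the comparison over both backgrounds, Ngfr, Med1, Mapt, Mbtd1, Glg1, Msl1, Chchd2 and Psmd4 were called also with the Xist class of the library as a further term, while Impad1 and Ctsk, at log2 fold changes of -0.53 and -1.39, each had an adjusted p of 0.0617 by edgeR.

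**Figure D3:**
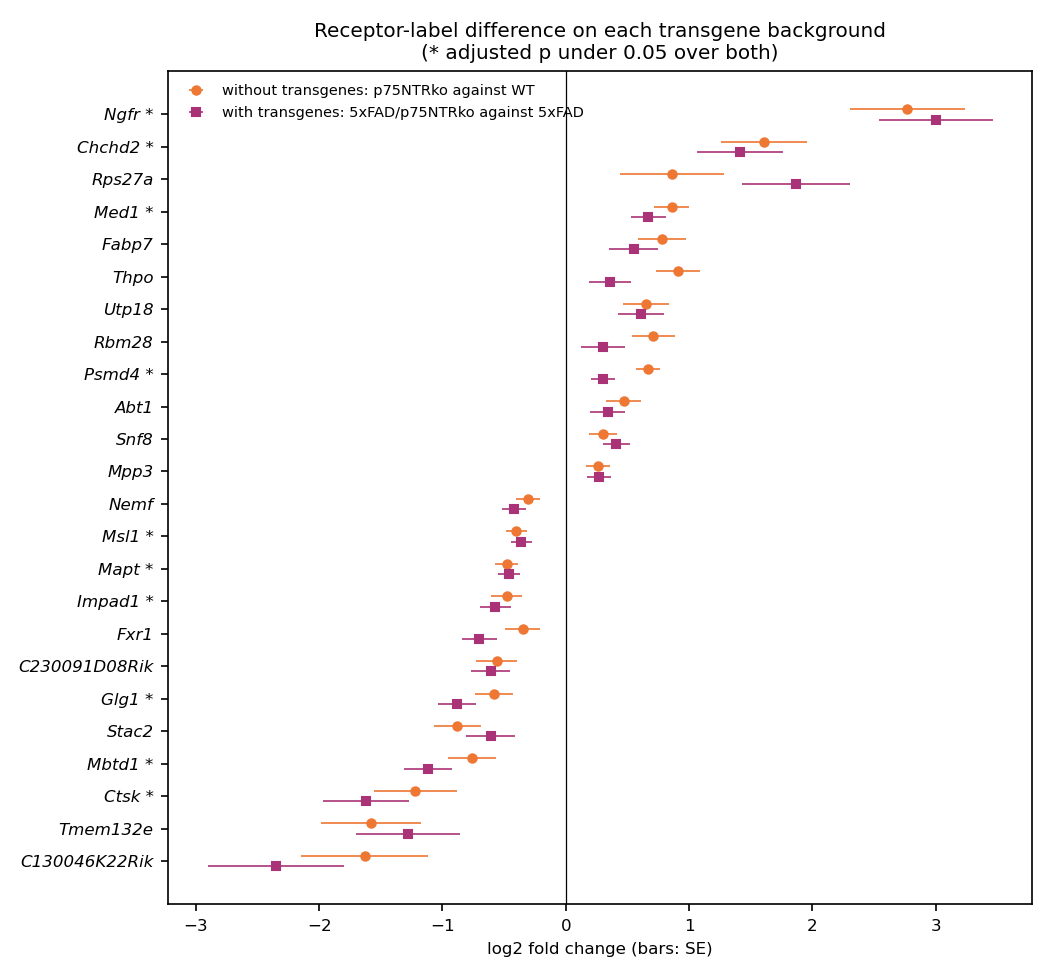
Log2 fold change (x axis, with bars of 1 SE) for the genes with the smallest p in each direction, taken separately without transgenes (p75NTRko against WT, circles) and with them (5xFAD/p75NTRko against 5xFAD, squares). Asterisks mark genes past the adjusted threshold over both backgrounds; each gene has the same sign on both, with Ngfr at 2.77 and 3.

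The test of whether the receptor-label difference itself changed between backgrounds called 5 genes (0.0383%), the Y-linked Ddx3y, Eif2s3y, Uty and Kdm5d, and Adra1b. None of the 10 genes called for the receptor label was among them. The smallest p of this test among the 10 belonged to Psmd4, given above. Dcx, a marker of immature neurons, had a log2 fold change of -0.18 (SE 0.190) without transgenes and 0.41 (SE 0.189) with them, and the test of that difference gave an adjusted p of 0.527 by edgeR.

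Among the genes of the receptor's own pathway, ligands were considered first. Ntf3, which encodes neurotrophin-3, had 6.55 to 8.31 CPM (median 7.45) in receptor-labelled libraries and 2.73 to 8.12 CPM (median 4.30) in the others, where WT replicate 3 alone reached the receptor-labelled range. Its log2 fold change was 0.62 (SE 0.214, adjusted p 0.678 by edgeR). Bdnf, the brain-derived neurotrophic factor gene, had 81.2 to 116 CPM (median 101) against 57.2 to 96.4 CPM (median 86.6), with overlap (log2 fold change 0.31, SE 0.123, adjusted p 0.809 by edgeR). Ntf5, with 27 counts over all libraries, did not pass the filter.

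Of the Trk receptors, Ntrk2, the receptor of BDNF, had 370 to 438 CPM against 403 to 482 CPM (log2 fold change -0.14, SE 0.0612, adjusted p 0.842 by edgeR). Ntrk3, the receptor of neurotrophin-3, had 153 to 193 CPM against 183 to 208 CPM (log2 fold change -0.17, SE 0.0663, adjusted p 0.809 by edgeR). Both overlapped. Of the sortilin family, which binds neurotrophin precursors, Sorcs2 had 22.4 to 27.8 CPM (median 25.7) against 25.4 to 34.0 CPM (median 33.1). It overlapped through 5xFAD replicate 3 (log2 fold change -0.31, SE 0.0940, adjusted p 0.6 by edgeR). Sort1, Sorcs1 and Sorcs3 had log2 fold changes of 0.03, -0.17 and -0.09, with adjusted p-values of 0.942, 0.924 and 0.88 by edgeR.

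Over the list of neurotrophins and their receptors, 10 of 12 genes were tested, 1 was called, which was Ngfr, and the median log2 fold change was -0.03. Ngfr, Ntf3, Bdnf, Ntrk2, Ntrk3 and Sorcs2, 6 of the 10, had an unadjusted p under 0.05, a level reached by 5.79% of all genes tested. Besides Ngfr, both ligands in that set had higher and the 3 receptors lower estimates, and none passed the threshold.

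**Figure D4:**
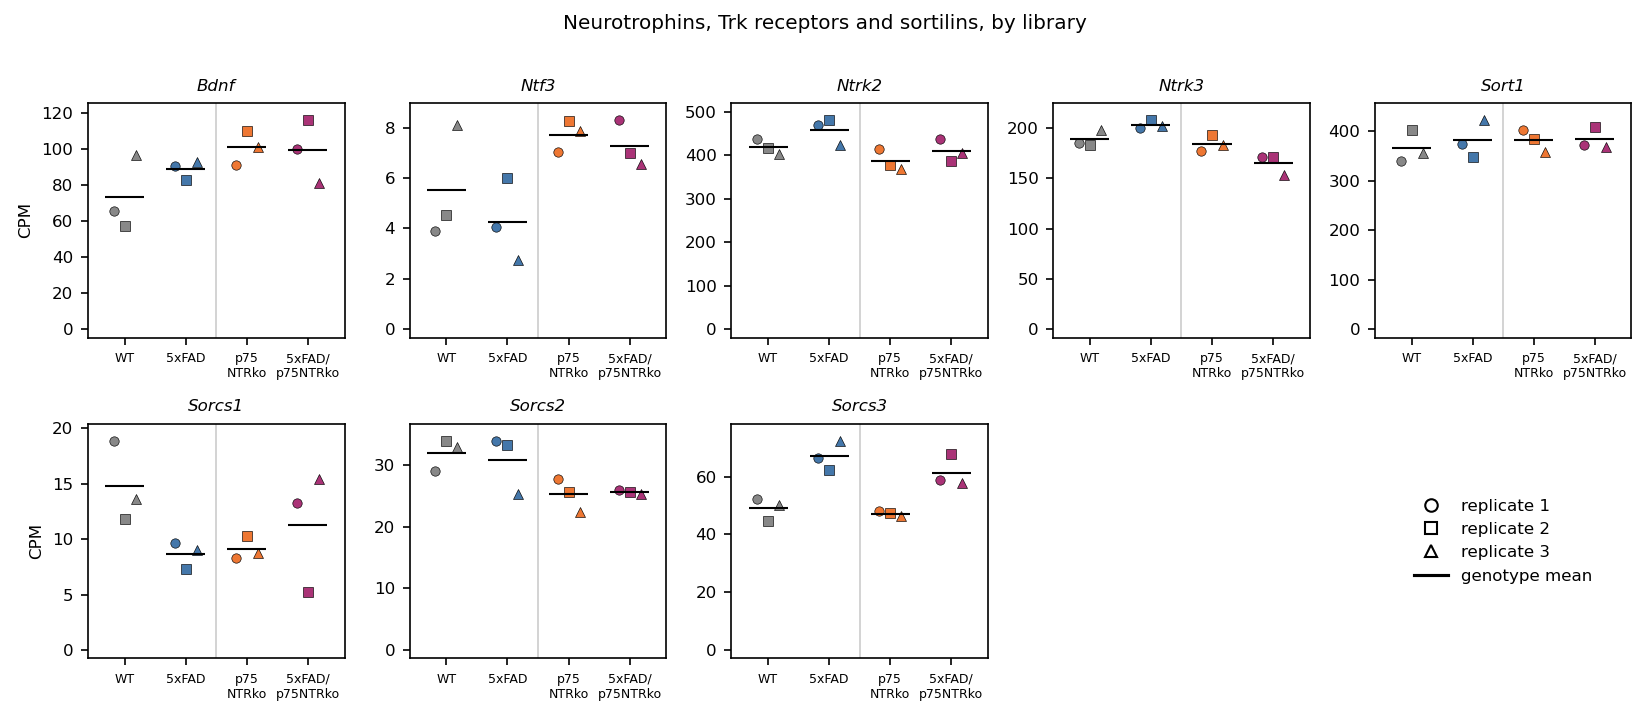
CPM (y axis, linear, from 0) of neurotrophin ligands, Trk receptors and sortilins in each library, by genotype, with the mean of 3 libraries as a black line. Bdnf and Ntf3 overlap between receptor-labelled (right of the grey line) and other libraries, as do the receptors; Ntf3 in WT replicate 3, at 8.12 CPM, lies within the receptor-labelled range.

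Co-receptors and adaptors of p75NTR showed 0 called genes of 27 tested, 0 also at an unadjusted p under 0.05, and a median log2 fold change of 0.03. The smallest p-values belonged to Irak1, a kinase of the TRAF6 pathway (log2 fold change 0.14, adjusted p 0.85 by edgeR), and to the adaptor Traf6 itself, with 11.6 to 17.9 CPM against 10.8 to 15.5 CPM (log2 fold change 0.25, adjusted p 0.85 by edgeR). Of 30 genes of adult neurogenesis, 23 were tested, 0 were called, 0 had an unadjusted p under 0.05 and the median was 0.01. Dcx had 23.2 to 43.4 CPM (median 25.9) against 21.4 to 33.3 CPM (median 25.8), a log2 fold change of 0.12 with a 95% confidence interval of -0.20 to 0.44. Neurod1, a transcription factor of new granule neurons, had a log2 fold change of 0.16 (adjusted p 0.858 by edgeR), and Calb2, calretinin of immature neurons, one of -0.28 (adjusted p 0.858 by edgeR). The proliferation marker Mki67 and the intermediate progenitor marker Eomes, with 65 and 53 counts over all libraries, were too scarce to be tested.

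The glial lists likewise had 0 called members by edgeR and by DESeq2. Of 22 oligodendrocyte genes, 15 had lower estimates, 3 had an unadjusted p under 0.05 and the median log2 fold change was -0.10 (0.10 without transgenes and -0.33 with them). Mobp, a myelin protein gene, had 98.2 to 149 CPM against 126 to 235 CPM (log2 fold change -0.43, adjusted p 0.655 by edgeR), and Gjb1, the connexin 32 gene, had 16 to 28.2 CPM against 22.2 to 32 CPM (log2 fold change -0.28, adjusted p 0.821 by edgeR). Homeostatic microglial genes (16 tested, 1 at an unadjusted p under 0.05) had a median of 0.07. Cd33, a sialic acid-binding receptor of microglia, had 1.66 to 2.75 CPM against 0.746 to 1.70 CPM (log2 fold change 0.95, SE 0.291, adjusted p 0.593 by edgeR), and its ranges overlapped. Disease-associated microglial genes (18 tested, 1 at an unadjusted p under 0.05) had a median of 0.10. Spp1, the osteopontin gene, had a log2 fold change of -0.68 and Clec7a, the dectin-1 gene, one of 0.59, with adjusted p-values of 0.809 and 0.858 by edgeR. Reactive astrocyte genes (17 tested, 2 at an unadjusted p under 0.05) had a median of -0.04, with Lcn2, lipocalin 2, at 0.43 (adjusted p 0.848 by edgeR).

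Immediate early genes, which mark recent neuronal activity, had 0 called of 21 tested, 2 at an unadjusted p under 0.05 and a median log2 fold change of 0.14. Jun had 137 to 179 CPM against 106 to 148 CPM (log2 fold change 0.29, SE 0.0902, adjusted p 0.639 by edgeR), and the synaptic pentraxin Nptx2 17.0 to 25.0 CPM against 7.78 to 21.2 CPM (log2 fold change 0.46, adjusted p 0.809 by edgeR). Of 10 cholinergic genes tested, 9 had lower estimates, 0 were called, 0 had an unadjusted p under 0.05 and the median was -0.20. The nicotinic subunit Chrna4 had a log2 fold change of -0.40 (adjusted p 0.858 by edgeR), which was -0.87 (SE 0.276) without transgenes and 0.07 (SE 0.278) with them. Chat and Slc18a3, the genes that define cholinergic neurons, had 20 and 8 counts in all and were not tested.

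The carrier label was checked through Thy1, whose promoter drives the transgenes. Thy1 had 752 to 938 CPM in WT and 687 to 740 CPM in p75NTRko libraries, against 1590 to 4010 CPM in 5xFAD and 1780 to 4010 CPM in 5xFAD/p75NTRko libraries, so every carrier lay above every non-carrier. Between receptor-labelled and other libraries its log2 fold change was -0.14 (SE 0.205, adjusted p 0.919 by edgeR). App, the amyloid precursor gene, ran from 913 to 1160 CPM in receptor-labelled and from 707 to 1100 CPM in other libraries (log2 fold change 0.06, 95% confidence interval -0.12 to 0.23, adjusted p 0.926 by edgeR).

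Markers of tissue next to the hippocampus were summarised in the same way, and 0 of them were called by edgeR or DESeq2. At an unadjusted p under 0.05 there were 1 choroid plexus, 1 vascular, 2 striatal, 0 neocortical and 0 thalamic markers. Choroid plexus markers had a median log2 fold change of 0.62, with 17 of 18 higher. Ttr, transthyretin of choroid plexus epithelium, ran from 49.4 to 6110 CPM in receptor-labelled and from 142 to 4860 CPM in other libraries, so the spread within each set exceeded the difference between them (log2 fold change 0.91, SE 0.781). Folr1, a folate receptor of the same epithelium, had a log2 fold change of 1.33 (adjusted p 0.848 by edgeR). Thalamic and habenular markers had a median of -0.29 with 15 of 15 lower, which was -1.10 without transgenes and 0.55 with them. Striatal markers had a median of -0.30 with 10 of 11 lower, and of -0.69 without transgenes and 0.02 with them. Among them was the enkephalin gene Penk (log2 fold change -0.57, adjusted p 0.528 by edgeR). Neocortical markers (9 tested) had a median of -0.16, which was -0.63 without transgenes and 0.10 with them. Vascular and meningeal markers (16 tested) also had a median of -0.16, with -0.15 and -0.12 on these backgrounds.

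Hippocampal neuron markers, 16 of 16 tested, summed to 1190 to 1730 CPM in receptor-labelled and 1010 to 1890 CPM in other libraries, and their median log2 fold change was 0.14, which was 0.55 without transgenes and -0.23 with them. All 16 passed the filter, as did 18 of 18 choroid plexus and 16 of 16 vascular and meningeal markers. Of 8 blood markers, none passed the filter, and the haemoglobin genes Hba-a1, Hba-a2, Hbb-bs and Hbb-bt were listed at 0. Reads with more than 1 alignment, 9.57% to 12.1% of all reads, were kept out of the gene counts. Their part in these zeros was not tested, so the zeros give no measure of blood content. In bulk RNA, fewer cells of a type and less RNA per cell cannot be told apart. With choroid plexus and thalamic scores as further terms, 8 genes were called, and of the original 10 this fit lost Msl1, Ctsk and Psmd4, with log2 fold changes of -0.35, -1.60 and 0.40 and adjusted p-values of 0.137, 0.063 and 0.173 by edgeR. It added Ide (log2 fold change -0.67, adjusted p 0.0164 by edgeR). Ide was also called with genotype means (-0.46, adjusted p 0.043 by edgeR), but not in the reported fit (-0.48, SE 0.129, adjusted p 0.468 by edgeR). Its log2 fold change was -0.06 (SE 0.113) without transgenes and -0.87 (SE 0.108) with them, so the average describes neither background. The mean level of Ide was 27.7 CPM in WT, 58.7 CPM in 5xFAD and 29.3 CPM over the receptor-labelled libraries.

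**Figure D5:**
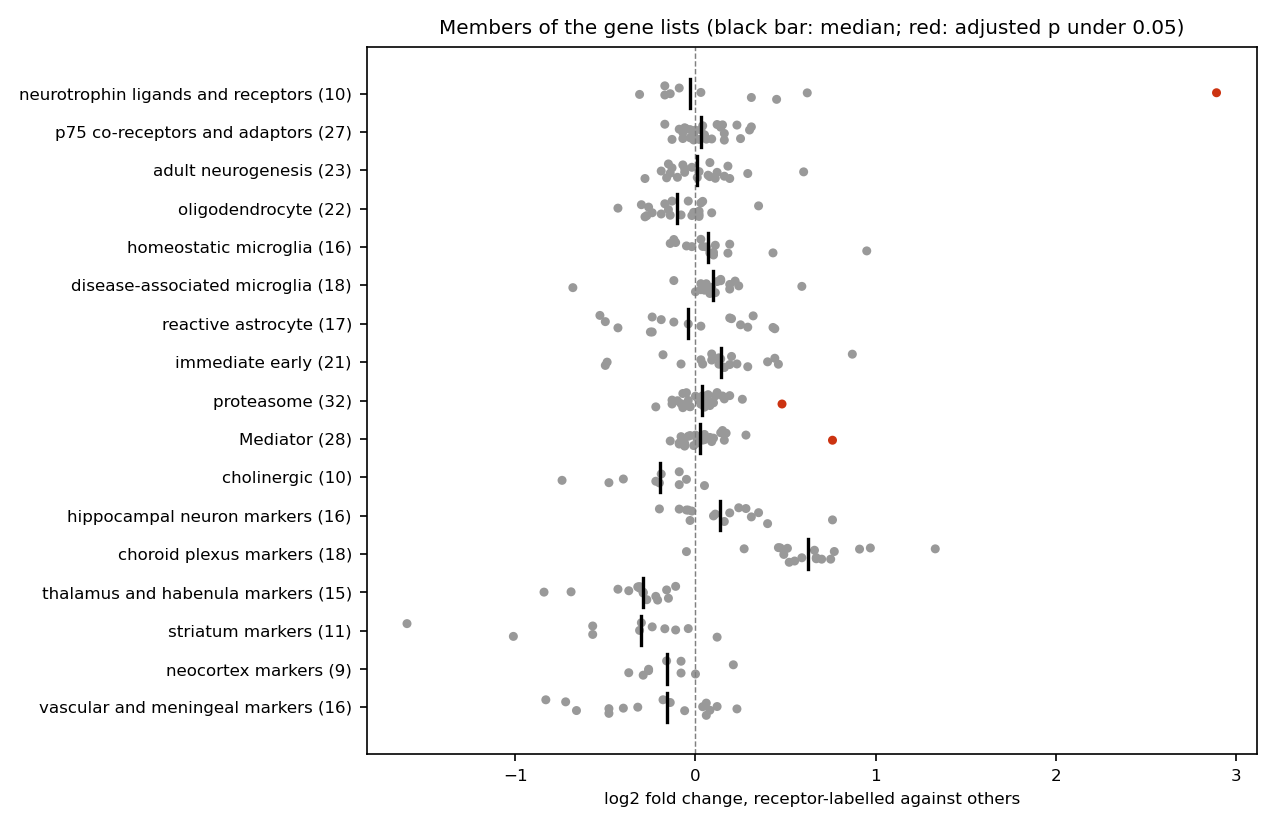
Log2 fold change (x axis) of receptor-labelled against other libraries for each tested member of 17 gene lists (number tested in brackets), with the list median as a black bar and genes past the adjusted threshold in red. The 3 red points are Ngfr, Psmd4 and Med1; choroid plexus markers lie to the right (median 0.62) and thalamic and striatal markers to the left (medians -0.29 and -0.30), all with 0 genes called.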

How the data were processed

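The libraries were made with a QuantSeq 3′ mRNA kit in the forward orientation from Trizol-extracted RNA and sequenced on an Illumina NextSeq instrument, per the labels' protocols, and all carry the same batch label. The authors deposited raw counts per gene symbol, 1 column per library, which carry no gene-length term. The submitters' processing notes name mm10, FastQC, HISAT2, SAMtools, HTSeq and edgeR. The annotation and the use of strand in counting are not given in the sources used here, so overlapping, antisense and near-identical genes are uncertain. Summary lines of the table that name no gene were left out; genes received 32.2% to 38.5% of reads. Columns of other samples numbered 0.

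The analysis ran in edgeR 4.0.16 under R 4.3.3. Low genes were removed by filterByExpr on the 4 genotypes, libraries scaled by TMM, and a quasi-likelihood model with additive terms for transgene carriage and receptor label fitted to all 12 libraries, with Benjamini-Hochberg adjustment over 13065 genes. The common biological coefficient of variation was 14.8%. Log2 CPM used a prior count of 2. Libraries of a genotype correlated at 0.973 to 0.990 (Spearman), and their counts differed by more than sampling noise, with a chi-square of 3.03 or more for each degree of freedom. The labels do not say that replicates came from separate animals, so p-values measure the spread between these libraries. Positions are those of RefSeq on GRCm38.p6, which matched 99.8% of tested genes. Promoter sequences are from RefSeq on the same build, where Ngfr, Mbtd1 and Utp18 matched. The scripts were tested on simulated data.

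The comparison, gene lists and named genes were chosen with earlier results of these data known. The rule named Ngfr, Thy1, App, Med1, Psmd4, Dcx and Gfap, the 12 smallest p in each direction, called members or else the 2 smallest p of each of 19 lists, and called genes within 10 Mb of Ngfr; other list members and interaction genes are named beside their counts, after their values were seen. Alternatives were DESeq2 1.42.0, RLE factors, other filters, Xist class, marker scores, omission of X and Y genes, of the transgene term or of each library, genotype means, each background alone, a replicate block and, added later, omission of chromosome 11. Limits of 3 counts and confidence intervals of 95% are from counting or from the model only. Reads were amplified and carry no stated molecular identifiers, so they are not independent molecules. Of the neurotrophin list, 2 genes entered the counts but their own values are not reported here.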

Additional observations from a re-analysis of the deposited data

Results flagged for a closer look

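In several genes 1 library stood apart from the other 5 of its set, by a share of the set's range above Dixon's 95% critical value. Chance gives about 1 such result in 20 sets. Every named gene was scanned in both sets, so several such results would come by chance alone. Each set also pools carriers and non-carriers, which the critical value does not allow for. The values are given without explanation. For Med1 and Mbtd1 this was p75NTRko replicate 3, at 128 CPM (gap 0.701 of the range) and 117 CPM (0.754), in both on the side of the libraries without the receptor label. For Chchd2 and Rps27a it was 5xFAD/p75NTRko replicate 1, at 1150 CPM (0.737) and 109 CPM (0.701), and among the other libraries WT replicate 2, at 1900 CPM (0.774) and 338 CPM (0.649). For Utp18 it was 5xFAD/p75NTRko replicate 2, at 36.2 CPM (0.692). Among the other libraries it was WT replicate 3 for Folr1, at 8.61 CPM (0.697), and for Acta2, at 21.0 CPM (0.642), and 5xFAD replicate 3 for Chrm3, at 60.9 CPM (0.784).

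The receptor-label difference itself differed between carriers and non-carriers for 5 genes in edgeR's quasi-likelihood test. For Adra1b, an alpha-1 adrenergic receptor gene, the log2 fold change was -1.60 without transgenes and 1.13 with them, a difference of 2.73 (adjusted p 0.0307). Its level was 74.0, 60.8 and 35.8 CPM in WT replicates 1, 2 and 3, 22, 17.4 and 16.9 CPM in p75NTRko, 14.4, 19.5 and 13.2 CPM in 5xFAD, and 39.1, 19.3 and 44.4 CPM in 5xFAD/p75NTRko. The thalamic marker median was -1.10 without transgenes and 0.55 with them, and a link between these markers and Adra1b was not tested. With marker scores as further terms 0 genes were called. That fit lost the Y-linked genes as well, so its result is not particular to Adra1b. Its genes at an unadjusted p under 0.05 by edgeR numbered 528, against 1218 without these terms. For the Y-linked genes the differences were -14.59 (Ddx3y), -14.41 (Eif2s3y), -14.91 (Kdm5d) and -16.15 (Uty) on the log2 scale, with adjusted p-values of 0.00472, 0.00487, 0.0186 and 0.00487. These sizes depend on the prior count, because several libraries had 0 counts. High values fell in the 5 libraries with low Xist, all of 5xFAD and p75NTRko replicates 2 and 3, and with Xist class as a term 1 gene was called in place of 5.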

How the results depend on the processing

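The count of 10 called genes (4 higher, 6 lower) became 30 with DESeq2 (24 lower), which also called all 10; 2 higher with a mean of at least 50 counts; 4 with a replicate block (2 higher, 2 lower); 0 in non-carriers alone (0 higher, 0 lower); 5 in carriers alone (1 higher); and 0 without chromosome 11 (0 higher, 0 lower), an alternative chosen after seeing the data. It lay within 1.5 times the reported count with RLE factors (10), no filter (13), genotype means (11), X and Y genes left out (10), Xist class (8), marker scores (8) and no transgene term (7). Leaving out 1 library gave 1 to 8 genes, 1 to 4 higher and 0 to 6 lower. The count of 1 came without p75NTRko replicate 2, counts of 3 without WT replicate 3, p75NTRko replicate 1, 5xFAD/p75NTRko replicate 2 or any 5xFAD library, and that of 6 without WT replicate 1. The 5 interaction genes became 25 with DESeq2, 15 with no filter, 3 with a mean of at least 50 counts, 1 with Xist class, 0 without X and Y genes (1172 at an unadjusted p under 0.05), 0 with marker scores (528), 3 with a replicate block and 3 to 20 with 1 library left out. The Ngfr difference in mean log2 CPM, 2.71 over all libraries, was 7.01 on the CPM scale and 2.42 to 2.96 log2 units with 1 library left out; the edgeR log2 fold change was then 2.68 to 3.22. Ngfr and Ctsk did not pass the filter on a mean of at least 50 counts, so neither was tested in that fit. Psmd4 had an adjusted p of 0.0507 by edgeR there. The cause of the other shifts was not tested, except that each omitted library leaves fewer samples. Over the called genes, the direction was kept in every alternative that tested the gene. Counted as pairs of a called gene and an alternative fit, the adjusted p stayed under the threshold in 135 and rose above it in 108. The fits share libraries, so these pairs are not independent.

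Replicate numbers did not pair the libraries: over 18 same-numbered pairs the correlation of deviations from genotype means ran from -0.42 to 0.14, with 2 above 0.1. With the replicate block Ngfr, Med1, Mapt and Mbtd1 stayed called.

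Genes not called that changed sign were Chrna4 (0.07), Rorb (0.10), Neurod1 (-0.05), Olfml3 (-0.32), Rora (0.55) and App (-0.01) in carriers alone; Chrm3 (0.05), Xist (-1.53), Dcx (-0.18) and Kdm5d (7.80) in non-carriers alone; Rora (0.14) and App (-0.02) with marker scores; Xist (-0.05) and Kdm5d (0.67) with Xist class; Kdm5d with DESeq2 (0.55) and genotype means (0.34). With 1 library left out, Dcx ran from -0.02 (without 5xFAD/p75NTRko replicate 3) to 0.22, App turned to -0.01 without WT replicate 2, and Kdm5d ran from -1.45 to 0.01 (without 5xFAD/p75NTRko replicate 1). Genes at a few counts, such as Ctsk, Ngfr and C130046K22Rik, are limited by depth.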

Other observations

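DESeq2, whose 30 calls included all 10 of edgeR, placed 10 of them on chromosome 11 and 8 within 10 Mb of Ngfr. Besides Utp18, Stac2, C130046K22Rik and Tmem132e, it called Fabp7 (log2 fold change 0.67, adjusted p 0.00573 by DESeq2), Nemf (-0.37, adjusted p 0.00305 by DESeq2) and Fxr1 (-0.53, adjusted p 0.00573 by DESeq2). Further genes with lower levels in this list, named after their values were seen, were Klf9, a transcription factor induced by glucocorticoid and thyroid hormone (-0.22, adjusted p 0.0245 by DESeq2), Sv2a, a synaptic vesicle glycoprotein (-0.39, adjusted p 0.00706 by DESeq2), Kcnj9, a potassium channel subunit (-0.87, adjusted p 0.0064 by DESeq2), and Trh, the thyrotropin-releasing hormone precursor (-3.40, adjusted p 0.0288 by DESeq2). None of the genes beyond the 10 had an adjusted p under 0.05 in the reported edgeR fit. The libraries overlapped for Sv2a, Kcnj9 and Trh. Trh had 0.185 to 1.64 CPM in receptor-labelled and 0.662 to 22.9 CPM in other libraries. Its mean was 11.3 CPM ± 9.68 in WT and 9.19 CPM ± 11.9 in 5xFAD libraries (SD). With no filter on low counts edgeR also called C130046K22Rik (adjusted p 0.0285), Stac2 (0.033) and Fabp7 (0.0477). With 1 library left out it called C130046K22Rik without p75NTRko replicate 3 (adjusted p 0.0131) and Stac2 without 5xFAD/p75NTRko replicate 3 (0.0304).

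Some genes kept all 6 receptor-labelled libraries apart from the 6 others but were not past the threshold in the reported edgeR fit. Klf9 had 464 to 533 CPM against 550 to 605 CPM, and Smarca2, the ATPase BRM of chromatin remodelling complexes, 231 to 268 CPM against 271 to 355 CPM. Klf9 and Smarca2 were called by DESeq2, with adjusted p-values of 0.0245 and 0.0288. These were picked after their values were seen, from the 42 genes without overlap (0.321% of genes tested).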
